A study of Homo sapiens with 40 samples.

Results

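DAXX knockdown was compared with control siRNA through the replicated CENP-A peaks of SW480 cells, a human colorectal cancer line. The 2 merged peak lists were set against each other peak by peak. They held 952 peaks after DAXX knockdown and 408 with control siRNA, out of 5748 peaks in the 6 lists of the series. A peak was called kept when it shared at least 1 base with a peak of the other list. A DAXX knockdown peak without such a partner was called new, and a control peak without one was called lost. Kept peaks that touched each other were joined into 1 kept locus, and a locus was called wider when its DAXX knockdown peaks held more bases than its control peaks.

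The series asked which chaperones place CENP-A outside centromeres, and it measured native CENP-A ChIP-Seq in 6 conditions with 40 libraries. Both conditions used here had 4 ChIP libraries and 4 input libraries. The DAXX knockdown cells received siDAXX by electroporation and the siRNA was present for 72 h. The comparison cells carry the label Untreated, while the study's methods describe them as treated with a control siRNA. Chromatin was digested with micrococcal nuclease and precipitated with an anti-centromere (ACA) serum. Such sera can hold antibodies to more than 1 centromere protein. SW480 cells overexpress endogenous CENP-A in both conditions, and the knockdown was transient. How much DAXX protein remained cannot be read from peak positions. The lists hold only positions, with no peak height, read count or value per library, so no test between the conditions was possible. The study gives read depths for its libraries, which were not used here. Shares are given with 95% Wilson intervals, which cover counting error only and treat neighbouring peaks as separate. The part of sequencing depth in the number and width of the listed peaks was not tested here. The study itself drew equal numbers of reads from pooled replicates. It reported that ectopic CENP-A also increased after DAXX knockdown by that method.

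CENP-A is the histone H3 variant that marks centromeres and on which the kinetochore is built. Its own chaperone is HJURP, which deposits it at centromeric alpha satellite DNA, a tandem repeat in which many units carry the binding site of CENP-B. DAXX, together with the remodeller ATRX, deposits another variant, H3.3, into repeats such as pericentromeric and telomeric chromatin, and it can also bind CENP-A. The sequences shown come from chromosomes other than chromosome 8, and the widest peaks named with them are the widest of those chromosomes.

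After DAXX knockdown, 653 of the 952 peaks (68.6%, interval 65.6 to 71.5) were new, and 299 overlapped a control peak. Of the 408 control peaks, 351 were kept (86.0%, interval 82.3 to 89.1) and 57 (14.0%) were lost. New peaks had a median width of 771 bp, against 1196 bp for kept DAXX knockdown peaks. Lost peaks had a median width of 518 bp, against 826 bp for kept control peaks. New peaks held 679.8 kb and lost peaks 50.3 kb.

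Examples of the reference sequence under kept, new, gained and lost peaks are shown first. The stretches were picked by width, motif or gene, so they do not measure differences between the classes. Each is at most 300 bases of hg19, read 5′ to 3′ on the plus strand. The first pair lies in alpha satellite-like repeats at centromere gaps. The kept stretch is the middle of chr2:92315696-92326169, the widest kept DAXX knockdown peak whose central 300 bases hold the CENP-B box pattern. The new stretch is the middle of chr19:24555218-24567701, the widest new peak, whose central 300 bases hold none. Capitals mark the CENP-B box pattern, searched on both strands as its fixed letters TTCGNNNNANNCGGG.
Kept, chr2:92320783-92321082: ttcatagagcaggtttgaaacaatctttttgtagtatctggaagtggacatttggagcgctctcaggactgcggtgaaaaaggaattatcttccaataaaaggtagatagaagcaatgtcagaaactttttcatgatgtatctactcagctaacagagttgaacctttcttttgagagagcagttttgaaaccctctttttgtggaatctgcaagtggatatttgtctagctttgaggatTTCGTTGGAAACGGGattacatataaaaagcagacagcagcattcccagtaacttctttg
New, chr19:24561310-24561609: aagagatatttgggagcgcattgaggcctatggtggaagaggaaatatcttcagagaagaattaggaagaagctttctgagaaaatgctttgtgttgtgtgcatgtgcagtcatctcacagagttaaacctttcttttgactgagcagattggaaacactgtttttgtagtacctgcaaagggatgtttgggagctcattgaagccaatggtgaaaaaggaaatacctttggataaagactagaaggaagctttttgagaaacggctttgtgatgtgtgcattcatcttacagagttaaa

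The next pair shows the GGAAT repeat of human satellites II and III on the short arm of chromosome 21. Kept peaks held this repeat as well, and the shares of both classes are given below. The new stretch is the middle of chr21:10793776-10798210, the widest new peak with the repeat in its central 300 bases. The gained stretch comes from the kept locus that gained the most bases. It is the middle of 5567 bp at chr21:10842562-10848128 that no control peak covered. Capitals mark GGAATGGAAT, 2 units in a row, on either strand with overlaps allowed.
New, chr21:10795843-10796142: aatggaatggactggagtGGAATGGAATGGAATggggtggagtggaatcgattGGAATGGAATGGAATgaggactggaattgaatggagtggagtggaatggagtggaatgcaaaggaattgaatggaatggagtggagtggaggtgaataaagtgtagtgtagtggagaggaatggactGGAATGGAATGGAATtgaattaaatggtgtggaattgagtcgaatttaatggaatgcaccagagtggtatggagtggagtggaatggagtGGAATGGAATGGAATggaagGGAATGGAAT
Gained, chr21:10845195-10845494: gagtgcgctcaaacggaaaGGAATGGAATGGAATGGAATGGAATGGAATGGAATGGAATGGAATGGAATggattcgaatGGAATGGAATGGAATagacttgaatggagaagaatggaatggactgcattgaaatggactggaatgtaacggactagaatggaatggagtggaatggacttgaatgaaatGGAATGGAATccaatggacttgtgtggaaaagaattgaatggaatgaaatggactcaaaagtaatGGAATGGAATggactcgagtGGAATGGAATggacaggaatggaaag

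The last 3 stretches come from outside satellite DNA and compare a new peak of the arms with lost peaks at genes. The new one is the middle of chr12:24337300-24339213, in an intron of SOX5. The lost ones are the parts of the HSPA13 and H3-3B peaks that lie outside annotated exons. Capitals mark CG dinucleotides, which number 1 in the SOX5 stretch, 5 in the HSPA13 stretch and 19 in the H3-3B stretch.
New, SOX5, chr12:24338107-24338406: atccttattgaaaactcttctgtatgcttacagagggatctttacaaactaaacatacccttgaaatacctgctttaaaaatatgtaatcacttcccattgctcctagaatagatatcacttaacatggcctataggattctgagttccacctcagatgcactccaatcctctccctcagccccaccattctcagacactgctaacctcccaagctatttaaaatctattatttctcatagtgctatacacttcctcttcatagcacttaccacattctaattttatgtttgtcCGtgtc
Lost, HSPA13, chr21:15756271-15756570: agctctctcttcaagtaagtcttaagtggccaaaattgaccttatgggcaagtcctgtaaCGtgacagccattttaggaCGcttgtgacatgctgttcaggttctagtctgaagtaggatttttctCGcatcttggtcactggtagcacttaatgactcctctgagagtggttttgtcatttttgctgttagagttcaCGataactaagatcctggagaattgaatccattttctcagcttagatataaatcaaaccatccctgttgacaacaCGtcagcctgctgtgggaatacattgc
Lost, H3-3B, chr17:73775862-73776093: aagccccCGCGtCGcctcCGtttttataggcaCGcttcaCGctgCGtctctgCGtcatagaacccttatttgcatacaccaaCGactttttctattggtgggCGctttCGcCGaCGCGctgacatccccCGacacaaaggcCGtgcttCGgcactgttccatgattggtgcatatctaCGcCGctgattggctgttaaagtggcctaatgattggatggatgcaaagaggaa

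The peaks fell into 4 zones, taken in order: the chromosome 8q24 segment, the centromere bands of hg19, the pericentromere up to 5 Mb from the stretch of unknown bases that stands for each centromere in hg19 (the centromere gap), and what was left of the chromosome arms. At 8q24, 332 of 389 DAXX knockdown peaks were new, and 0 of the 81 control peaks were lost, which allows a lost share of up to 4.53% (upper Wilson bound). In the centromere bands 94 of 193 DAXX knockdown peaks were new and 19 of 119 control peaks were lost. In the pericentromere 154 of 291 were new and 25 of 189 lost. On the arms 73 of 79 were new and 13 of 19 lost. Read against 68.6% new and 14.0% lost over the whole lists, the arms stood high on both counts, whereas 8q24 stood high in new and had no lost peak.

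Peak numbers were higher on 20 of the 23 chromosomes that held a peak in either list, were equal on 2 and lower on chromosome 13, whose single control peak was lost. Chromosome 12 went from 2 to 25 peaks, of which 24 were new. Chromosome 15 went from 4 to 17 with 16 new, and chromosome 3 from 0 to 8. Chromosome 11 kept 12 peaks in both lists, and only 1 of its DAXX knockdown peaks was new. The X chromosome had 14 peaks against 12, and only 2 of its 10 kept loci were wider. The number of bases did not follow the number of peaks throughout, since only 18 chromosomes had more peak bases after DAXX knockdown. On chromosomes 6, 11, 17 and X the bases were fewer although the peaks were equal or more numerous, with 5.67 kb against 6.62 kb, 9.27 kb against 9.74 kb, 12.9 kb against 13.2 kb and 7.06 kb against 8.64 kb.

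**Figure D1:**
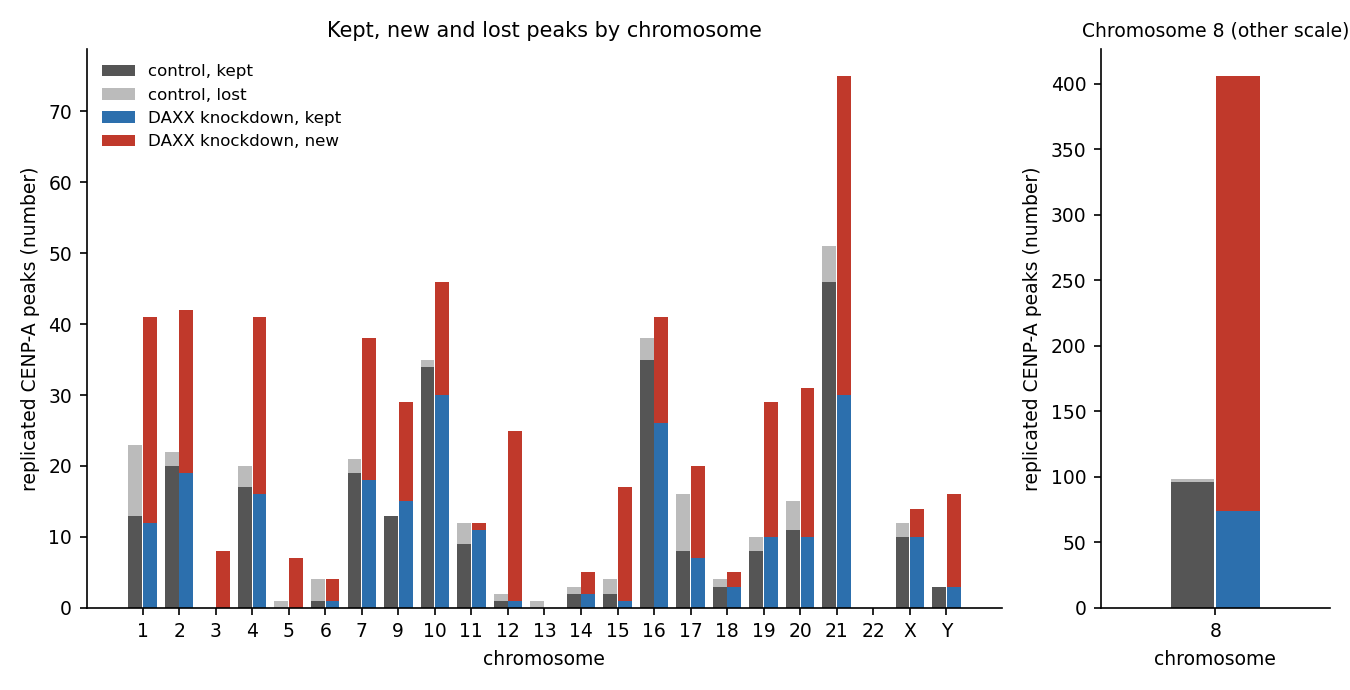
Number of replicated CENP-A peaks (y axis) on each chromosome (x axis), with control siRNA in the left bar and DAXX knockdown in the right bar of each pair. Kept, lost and new peaks are stacked, and chromosome 8 has its own scale. New peaks made up 332 of 406 DAXX knockdown peaks on chromosome 8 and 24 of 25 on chromosome 12.

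The peaks of chromosome 8q24 lie in a gene-poor segment around MYC, an oncogene that encodes a transcription factor. This segment is rich in long non-coding RNA genes. It held 50.8% of all new peaks (interval 47.0 to 54.7) and 56.9% of their bases. The study reports that the MYC locus is amplified in SW480 cells. The part of copy number in the number and width of the 8q24 peaks was not tested. Between the first and the last peak, chr8:126684354-129617254, DAXX knockdown peaks covered 19.6% of the 2932.9 kb and control peaks 2.88%. The median space between neighbouring peaks was 0.850 kb after DAXX knockdown and 3.61 kb with control siRNA. New peaks there had a median width of 987 bp, against 572 bp for new peaks elsewhere. The widest were chr8:128371314-128375621 (4308 bp), in introns of CASC8, PCAT1 and POU5F1B, chr8:129346030-129350129 (4100 bp), over an exon of ENSG00000286034, and chr8:128165643-128169739 (4097 bp), in introns of CASC19 and PCAT1.

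The new 8q24 peaks were not confined to the edges of control peaks. Their median distance to the nearest control peak was 14.3 kb (quartiles 3.19 and 31.7 kb), and the farthest lay 343.1 kb away. Of the 332, 26 lay within 1 kb of a control peak and 144 within 10 kb. By 250-kb steps, the one from 127.75 to 128 Mb had 1 control peak and 35 DAXX knockdown peaks, and that from 126.75 to 127 Mb had 3 and 36. At the far end, from 129.5 to 129.75 Mb, 13 control peaks stood against 19, and peak bases went from 15.8 kb to 46.6 kb. The 250 kb from 128.75 Mb, which hold most of the MYC body and the start of PVT1, had no peak in either list.

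The genes of the segment show the same pattern by gene body. Of 16 listed 8q24 genes, 12 are in the annotation. Of these, 8 carried a new peak, 7 carried a control peak and 0 lost one. Among all protein-coding genes, 0.134% carried a DAXX knockdown peak, 0.129% a control peak and 0.109% a lost one. Most of the 8 are non-coding genes, for which such a share was not computed. MYC itself (chr8:128747680-128755197) carried no peak in either list. The nearest DAXX knockdown peak lay 69.7 kb from it and the nearest control peak 386.8 kb. PCAT1, a prostate cancer-associated long non-coding RNA whose annotated body spans 862.7 kb, held 169 new peaks with 194816 bp. Peaks covered 31.8% of PCAT1 after DAXX knockdown and 4.46% with control siRNA. CASC19 lies inside PCAT1 and was covered to 52.1% and 7.50%. POU5F1B, a protein-coding retrogene of the pluripotency factor gene POU5F1, has an annotated body of 97.9 kb that was covered to 44.2% and 4.10%. Of its 35026 new peak bases only 155 lay in exons, so this coverage is mostly of introns. PRNCR1 was covered to 73.2% and 6.61%. PVT1, the long non-coding RNA gene downstream of MYC, was covered to only 2.28% and 0.266%. Of the 10 genes with the most new peak bases in the whole genome, 8 lie in this segment. Beside PCAT1 and CASC19 with 52909 bp, these include the long non-coding RNA genes LINC00861 with 49808 bp and LINC02964 with 40518 bp, which the list did not name, and LINC00824 with 17073 bp. The other two are non-coding genes near centromeres, ENSG00000290523 on chromosome 21 with 12288 bp and HERC2P3, a HERC2 pseudogene on chromosome 15, with 11580 bp. CASC11, LRATD2 and GSDMC had no peak in either list. CASC8, CASC19, POU5F1B and PRNCR1 overlap PCAT1, so 1 peak can count for several of them.

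**Figure D2:**
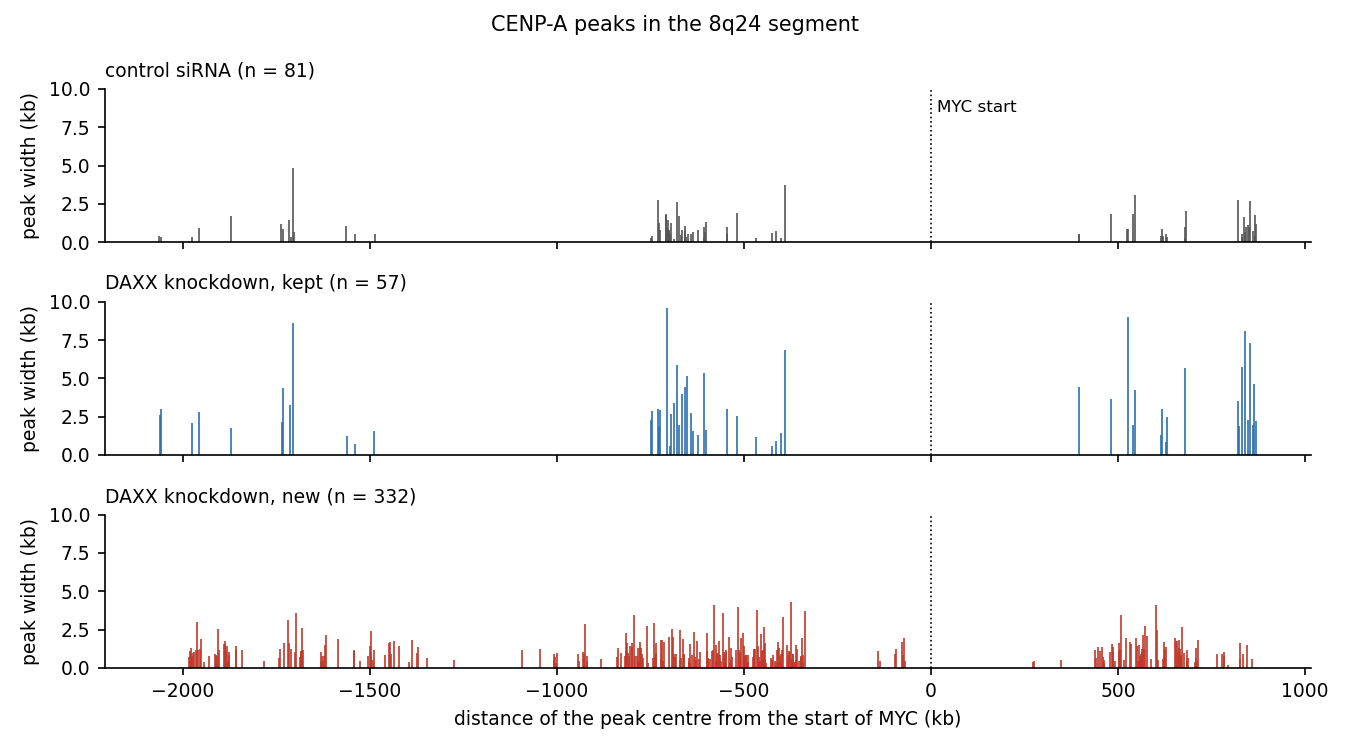
Peaks of the 8q24 segment, placed by the distance of their centre from the start of MYC (x axis, kb), with their width as height (y axis, kb). From top to bottom are 81 control peaks, 57 kept and 332 new DAXX knockdown peaks. The kept peaks stand at the control positions and are taller, while the new ones fill the space between them and leave the surroundings of MYC open.

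Widening of kept loci was counted over 279 loci. Of these, 198 (71.0%) were wider after DAXX knockdown, 80 (28.7%) were narrower and 1 was equal. The median locus held 1.15 times the control bases, and 82 loci (29.4%) held at least 1.5 times as many. Kept loci gained 226.3 kb and gave up 22.9 kb.

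The zones differed in how far their loci widened. At 8q24, 56 of 56 loci were wider (interval 93.6 to 100), with a median ratio of 2.21 (quartiles 1.47 and 4.04), and 41 passed 1.5 times. In the centromere bands, 46 of 91 were wider (50.5%, interval 40.5 to 60.6), the median ratio was 1.00, and 10 passed 1.5 times while 6 shrank as far. In the pericentromere, 92 of 126 were wider (73.0%, interval 64.7 to 80.0) with a median ratio of 1.13. On the arms, 4 of 6 were wider with a median ratio of 1.10. Outside 8q24 the median ratio over 223 loci was 1.06.

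Part of the widening was the joining of separate control peaks. In 43 loci, 1 DAXX knockdown peak took in several control peaks, 108 in all and up to 7 in 1 peak. Of these loci, 15 lay at 8q24 with 40 control peaks, 22 in the pericentromere and 6 in the centromere bands. Of the bases gained in these loci, 43.0 kb lay between control peaks and 60.3 kb beyond their outer edges. In 16 loci the control peak was split into several DAXX knockdown peaks instead. In 217 loci 1 peak stood against 1.

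The largest gain was at chr21:10842562-10856958, where 2 control peaks of 4767 bp in all became 1 peak of 14382 bp. This is the locus whose gained GGAAT-rich stretch is printed above. At chr7:61867627-61898284 the widest peak of the list measured 30658 bp against 22729 bp in 2 control peaks. At chr16:34003271-34018247 the peak went from 7664 to 14977 bp. All 3 lay in the pericentromere, between 331.2 and 1268 kb from the centromere gap. The largest losses were smaller. At chr7:61079030-61085835, in the centromere band, 1 peak of 6806 bp became 2 of 4056 bp in all. At chr10:42531278-42533916 the peak went from 2639 to 1297 bp. At chr8:46852316-46854887, in the centromere band, 2562 bp became 1738 bp.

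**Figure D3:**
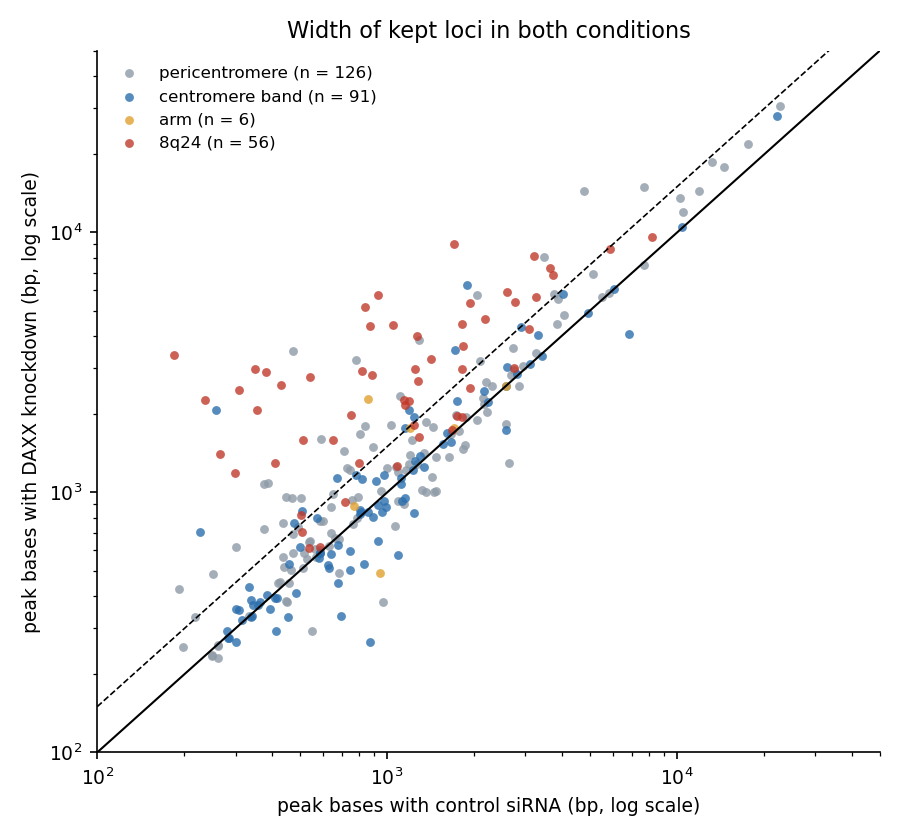
Peak bases of each of the 279 kept loci with control siRNA (x axis, bp, log scale) and after DAXX knockdown (y axis, bp, log scale), coloured by zone. The solid line marks equal width and the dashed line 1.5 times. All 56 loci of 8q24 lie above the solid line, while the 91 loci of the centromere bands lie on both sides of it with a median ratio of 1.00.

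With 8q24 left out, the shares of new and lost peaks were read by distance to the centromere gap. Within 100 kb of the gap, 67 of 190 DAXX knockdown peaks were new (35.3%) and 18 of 151 control peaks were lost (11.9%). From 100 to 500 kb, 57.7% were new and 11.0% lost. From 500 to 1000 kb these were 62.2% and 13.5%, and from 1 to 5 Mb 66.0% and 27.7%. At 5 Mb and more, 92.4% were new and 68.4% lost. From the nearest to the farthest class, peak bases after DAXX knockdown were 1.45, 1.81, 2.01, 1.68 and 2.97 times the control bases. This ratio did not rise at every step, and the farthest class held only 19 control peaks.

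**Figure D4:**
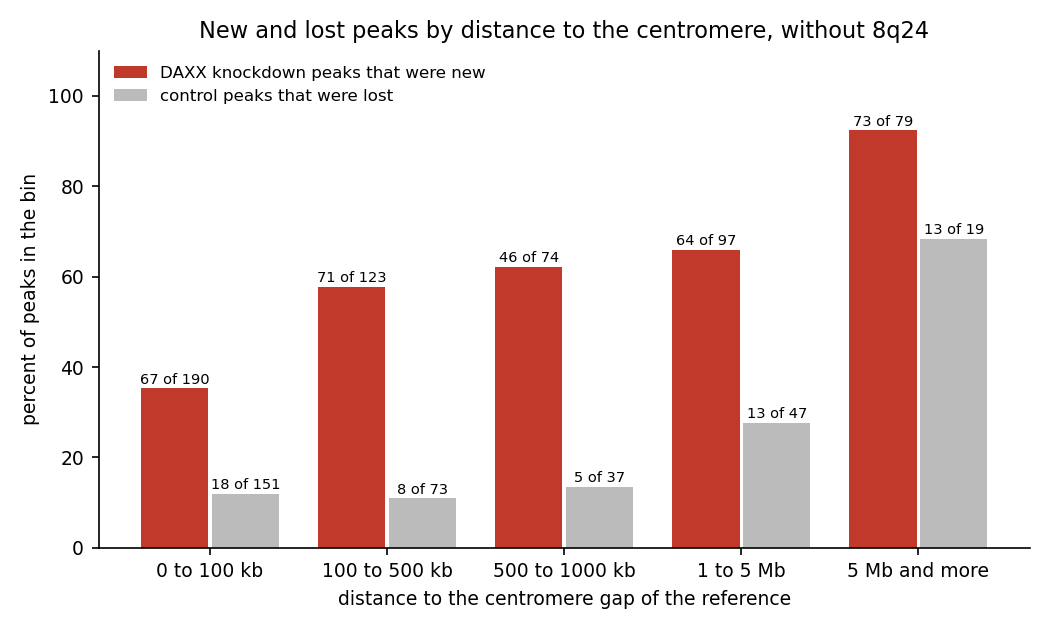
Percent of DAXX knockdown peaks that were new and percent of control peaks that were lost (y axis), by distance to the centromere gap of the reference (x axis), without 8q24. The labels give the counts. The new share goes from 35.3% in the nearest class to 92.4% in the farthest, and the lost share from 11.9% to 68.4%.

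Satellite sequence was read from the central 300 bases of each peak. The CENP-B box pattern, the site by which CENP-B binds alpha satellite, stood in 0.0192% of all 300-base windows of the reference. In the centromere bands it stood in 39.4% of the 99 kept DAXX knockdown peaks and in 11.7% of the 94 new ones. Over all zones, 74 DAXX knockdown peaks held it and 16 of them were new (21.6%). No 8q24 peak held it. The new share was 68.6% over the whole list, 57.0% outside 8q24 and 48.7% in the centromere bands. With control siRNA 59 peaks held it, and 6 were lost (10.2%, against 14.0% over the whole list and 17.4% outside 8q24). The 2 widest new peaks outside chromosome 8 held no match in this window, although both repeat at the length of an alpha satellite unit. At chr19:24555218-24567701 (12484 bp) the bases matched those 172 bases further on at 61.3% of positions. At chr21:14351797-14363795 (11999 bp) they matched at 63.9% with a shift of 171. The next widest, chr19:24582759-24588733 (5975 bp), matched at 47.2% with a shift of 170 and also held no box pattern.

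The GGAAT pair stood in 0.151% of reference windows. It stood in 101 DAXX knockdown peaks, of which 53 were new (52.5%, against 68.6% over the whole list and 57.0% outside 8q24), and in 55 control peaks, of which 1 was lost (1.82%, against 14.0%). Outside 8q24 the pair stood in 16.2% of new and 19.8% of kept DAXX knockdown peaks. In the centromere bands these shares were 9.57% and 17.2%. In the pericentromere, which held 40 of the 53, they were 26.0% and 22.6%. None of the 25 lost control peaks of the pericentromere held the pair.

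The arms held few peaks, but 42 of the 50 new peaks outside 8q24 that lay in a protein-coding gene. The largest group lay on chromosome 12p, with 23 new peaks of 16.4 kb over 5471 kb from chr12:21980776 to chr12:27452014 and no control peak. They were 298 to 1914 bp wide, and 14 lay in introns, 3 touched exons and 6 were intergenic. SOX5, which encodes a transcription factor of chondrocyte and neural development, held 6 of them in introns. LMNTD1 held 3, ST8SIA1, which encodes the GD3 ganglioside synthase, held 2, and STK38L held 2. MED21, which encodes a Mediator subunit, held a 1638 bp peak over an exon. Over all zones, 10 of 11 DAXX knockdown peaks at a protein-coding exon were new (90.9%, against 68.6% over the whole list). Of these 10, 7 lay on the arms, where 92.4% of all DAXX knockdown peaks were new. The 7 on the arms lay at MED21, ZNF717, LMNTD1, ST8SIA1 and CDC27. The others lay at POU5F1B in 8q24 and at SEC22B in the pericentromere. In the 12p stretch from chr12:21980776 to chr12:27452014, the HIRA knockdown list held 60 peaks and the HJURP knockdown list 32, against 23 for DAXX.

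A second group of 12 new peaks lay at the end of chromosome 4q, chr4:190542187-191032402, 121.9 kb from the end of the chromosome, around FRG1. ZNF717 on chromosome 3 held 7 new peaks, and 7 more lay on the long arm of chromosome Y. In KMT2C, which encodes a histone H3K4 methyltransferase, there were 4. ZNF717, KMT2C, FRG1, SEC22B, CDC27 and NBPF1 have near-identical copies elsewhere in the genome, and reads of the shared parts cannot be placed with certainty. The peaks in them differed in this. In the ZNF717 peaks 95.8% (median) of the 32-base words occurred elsewhere in the reference, and in the FRG1 peak 77.4%. The NBPF1 and CDC27 peaks held between 42.4% and 48.2% such words. In the 4 KMT2C peaks the range was 2.87% to 57.4%, and in the 3 SEC22B peaks 0% to 0.535%. The annotation places the pseudogenes SEC22B2P, SEC22B3P and SEC22B4P within SEC22B itself on hg19. Copies that hg19 does not hold apart do not enter the word count, so the low SEC22B values do not show that reads were placed surely. In the 12p peaks the median was 0%, and in 20 of the 23 it was under 5%.

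At DHX32, which encodes a DEAH-box helicase, 3 control peaks were kept beside 4 new ones at DHX32 and FANK1. They include the kept peak farthest from a centromere gap outside chromosome 8, chr10:127582185-127583961, at 85.2 Mb. The farthest new one was chr4:191031679-191032402, at 138.4 Mb.

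Lost control peaks lay at genes and in GC-rich DNA more often than kept ones by count. Of the 15 control peaks at an exon of a protein-coding gene, 14 were lost (93.3%), and of the 381 outside protein-coding genes, 37 (9.71%). Within 1 kb of a protein-coding transcription start, 10 of 12 were lost. Of 20 control peaks with more than 50% GC, 19 were lost, and in the DAXX knockdown list only 1 peak passed 50% GC. With peaks of higher GC and of under 5% repeated words left out, 31 of 300 control peaks outside 8q24 were lost (10.3%). The GC limit was set with the values in view.

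The widest lost peak was an intergenic one, chr16:32534344-32541890 (7547 bp), and it lay 1.70 kb from a DAXX knockdown peak. The next was chr21:15754393-15757035 (2643 bp) over the start of HSPA13, which encodes a member of the Hsp70 family, with 1385 kb to the nearest DAXX knockdown peak. At chr1:21111100-21113558 (2459 bp) the lost peak covered an exon of HP1BP3, which encodes a heterochromatin protein 1-binding protein. The EGR1 peak, at the 3′ end of an immediate-early transcription factor gene, measured 2276 bp. Of these, 326 bp lay in the gene and the rest beyond its end. The WSB1 peak measured 1973 bp. Others lay at ZNF25, DCUN1D4 (2 peaks), MIB1, PPP2R1A, which encodes the PP2A scaffold, AIMP2 and PMS2, IFT20 and TNFAIP1, and ID2. A peak of 1481 bp lay at MED29 and PAF1, which encode subunits of Mediator and of the PAF1 elongation complex. GC content in these ranged up to 70.1% at ID2. The one control peak at a coding exon that was kept lay at FAM72B, a gene with near-identical copies, and went from 965 to 379 bp.

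Of all 20163 annotated protein-coding genes, 27 carried a DAXX knockdown peak (0.134%) and 26 a control peak (0.129%). Among 16 genes of CENP-A and H3.3 deposition, which include DAXX, ATRX, HIRA, HJURP and CENPA, 0 carried a DAXX knockdown peak, which is near that background. One, H3-3B, carried a control peak. H3-3B encodes H3.3, the variant that DAXX deposits. The H3-3B peak, chr17:73775636-73776093 (458 bp, 60.9% GC), was lost, and the nearest DAXX knockdown peak lay 28.6 Mb away. It was among the 14 lost of the 15 control peaks at coding exons. The HJURP knockdown list also lacked it, while the HIRA list held 1 peak there. The CG-rich stretch printed above is the part of the H3-3B peak outside exons.

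The same 15 coding-exon control peaks were set against the other single knockdowns, which share the control list. Of these, 11 were lost with HIRA and 15 with HJURP knockdown, against 14 with DAXX. Over all 408 control peaks, 64 were lost with HIRA, 75 with HJURP and 57 with DAXX. New peaks were 478 of 848 with HIRA (56.4%) and 622 of 940 with HJURP (66.2%), against 68.6% with DAXX. A high new share was thus not particular to DAXX knockdown. PCAT1 held 69 peaks with HIRA and 170 with HJURP, against 195 with DAXX. At 8q24, 53 of 57 kept loci were wider with HIRA (median ratio 1.62) and 52 of 53 with HJURP (2.32), against 56 of 56 with DAXX (2.21). In the centromere bands 25 of 92 (0.920) and 32 of 89 (0.973) were wider, against 46 of 91 with DAXX (1.00). Over all kept loci, 51.3% were wider with HIRA, 57.8% with HJURP and 71.0% with DAXX. As the 3 comparisons use 1 control list, these counts are not independent of each other.

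Outside 8q24, peaks with few repeated words did not overlap between the lists. A peak with under 5% of its 32-base words found elsewhere was never kept there. Of such peaks, 17 of 17 control peaks were lost and 36 of 36 DAXX knockdown peaks were new. They made up only 29.8% of the lost and 11.2% of the new peaks outside 8q24. Over all peaks outside 8q24, 17.4% of control peaks were lost and 57.0% of DAXX knockdown peaks were new. The 5% limit was set with these values in view, so the full split is a description of it. Copies that hg19 does not hold apart are not seen by this count. The 36 include peaks at SEC22B and PDE4DIP, whose annotated pseudogenes lie on the same hg19 interval. Of 2863 reference windows of 1200 bp, spaced 1 Mb apart, 48.9% were under 5%. Kept DAXX knockdown peaks outside 8q24 had a median of 47.7% repeated words and new ones 40.7%. At 8q24 the medians were 0.320% and 0%, and 50 of the 57 kept peaks were under 5%.

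**Figure D5:**
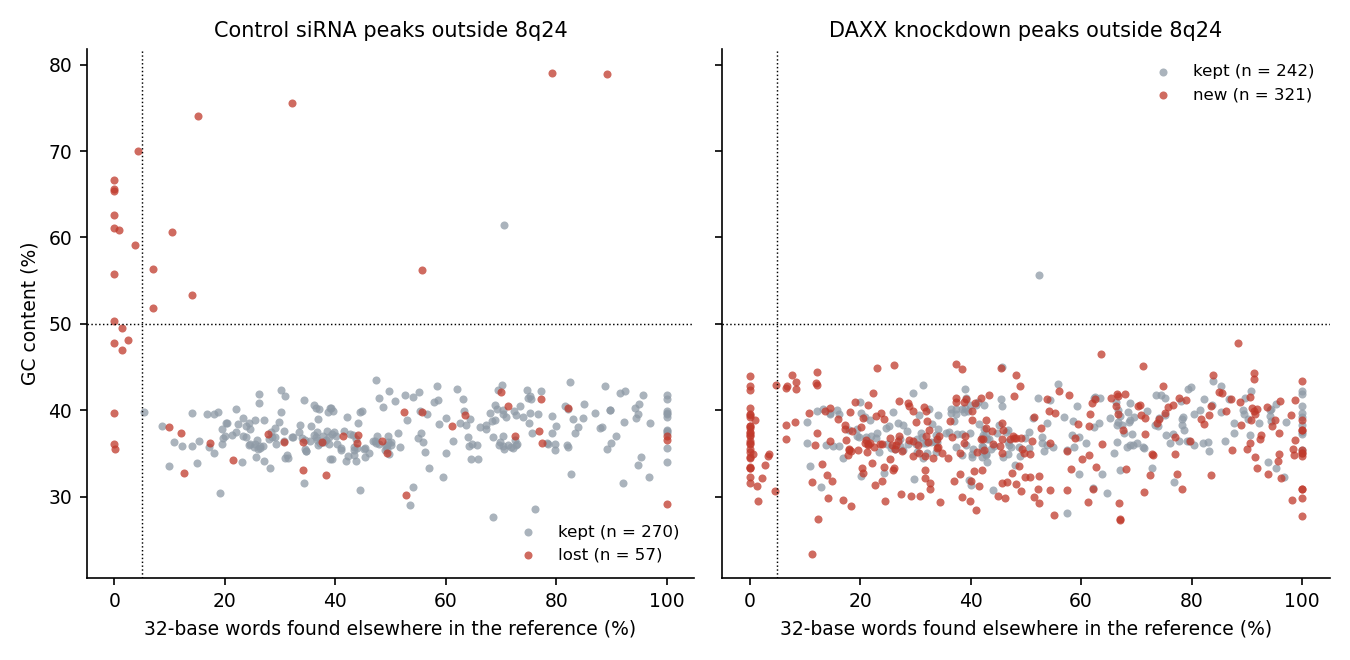
GC content (y axis, %) against the percent of 32-base words found elsewhere in the reference (x axis), for control peaks (left) and DAXX knockdown peaks (right) outside 8q24. Each point is a peak, and the dotted lines mark 50% GC and 5% repeated words. In the left panel, 19 of 20 peaks above 50% GC and all peaks under 5% repeated words were lost. The other 31 of the 57 lost peaks had 50% GC or less and 5% or more repeated words, like most kept ones. The right panel holds 1 peak above 50% GC.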

How the data were processed

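The data are CENP-A ChIP-Seq peak lists of SW480 cells, 1 merged list per condition. As the study's methods describe it, the authors used Trimmomatic for trimming and Bowtie2 2.2.6 for alignment to hg19, with 1 best alignment per read, and kept mapping qualities of at least 10. MACS called peaks of each ChIP relative to the matching input, and merged peaks overlapping calls of at least 3 replicates were deposited as positions. The deposited lists hold no counts, heights or scores. Members and gene lists were chosen with earlier results of these data known.

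Here overlaps (1 base or more) were computed with Python 3.11.15 and pandas 2.3.3, tested on simulated lists, and gave the same numbers of new and lost peaks as bedtools 2.31.1. Distances run to the nearest centromere gap (runs of N of at least 2 Mb in the GRCh37 reference, whose chromosome lengths hold every peak). Centromere band and 8q24 limits were written from general knowledge of the hg19 band map. Genes are from GENCODE release 44 lifted to GRCh37. Motifs were searched in the central 300 bases of each peak. Repeated words are 32-base words of a peak found more than once in the reference, on either strand. Repeats were sought at shifts of up to 400 bases over at most 1200 bases.

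Named regions were the 3 widest new peaks on and off chromosome 8, the 3 kept loci with the largest gain and loss, the 3 widest lost peaks, and the farthest new and kept peaks off chromosome 8. Named genes were the 10 with the most new bases, up to 10 protein-coding genes with an exon under a new or a lost peak, and 2 gene lists. Further genes of the arm groups were named after their values were seen.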

Additional observations from a re-analysis of the deposited data

How the results depend on the processing

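Across 37 alternatives to the 5 main values, 19 stayed within the counting interval (or within 1.5 times for the ratio) and 18 moved out of it. The new share of DAXX knockdown peaks was 73.6% for ectopic peaks, 58.8% without chromosome 8, 51.2% within 5 Mb of a centromere gap, 86.5% beyond it, 64.8% after merging peaks within 1000 bp and 59.3% after extending peaks by 500 bp. The kept share of control peaks was 82.3% without chromosome 8 and 89.5% after extension. The wider share of kept loci was 80.9% for ectopic peaks, 63.6% within 5 Mb, 96.8% beyond it and 29.4% when 1.5 times the bases were required. The ratio of peak bases, 2.51, was 6.09 beyond 5 Mb and stayed above 1 in every alternative, with 1.68 within 5 Mb as its lowest value. The 8q share of new peaks was 59.4% for ectopic peaks, 57.8% for peaks of at least 500 bp, 0% within 5 Mb, where 8q24 cannot fall, 82.0% beyond it and 41.3% after merging.

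No paired analysis was possible because the replicates of a condition were merged into 1 list before deposit. Leaving out a replicate and setting a stricter peak threshold were not run, since the lists name no replicate and hold no score. The lists give no peak height and no spread between libraries, read depths of the study were not used here, and reads of repeated sequence are placed less surely, which touches most peaks outside 8q24.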
